A study of Homo sapiens with 4 samples.

Results

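Selective autophagy receptors link a cargo to the forming autophagosome, and 9 of their genes were listed: SQSTM1, TAX1BP1, NBR1, CALCOCO2, TOLLIP, BNIP3, BNIP3L, FKBP8 and PHB2. They were taken by gene name from the authors' deposited table, which holds 8727 genes, and 8 of the 9 had a row. FKBP8 had none and so has no value here. The names were listed with earlier results of these data known, so how many of them had a row is not a finding.

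The table compares HepG2 cells (a line from a human liver tumour, which the labels call hepatoblastoma) given 20 µM isoginkgetin for 24 h with HepG2 cells given the solvent DMSO. Each group had 2 polyadenylated RNA libraries. Isoginkgetin is a biflavonoid of plants that inhibits the splicing of pre-mRNA, and the series title links it to autophagic cell death. For each gene the table holds the normalized count averaged over the 4 libraries, the log2 of the fold change and the standard error (SE) of that, and a p-value with its Benjamini-Hochberg adjusted value. Every row has an adjusted p under 0.05. The header does not name the numerator. Isoginkgetin was taken as the numerator and DMSO as the denominator, and the opposite reading would turn every direction given here. Values per library are not analysed here, and nothing in the labels says that replicates came from separate cultures, so a p-value here reflects variation between these libraries alone, which may be technical.

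Autophagy encloses cytoplasm in a double membrane that fuses with the lysosome. A receptor holds its cargo with one region and, with another, binds the LC3 and GABARAP proteins (the ATG8 family) on the growing membrane. The soluble receptors recognise ubiquitin chains on protein aggregates, bacteria or damaged mitochondria, and several are degraded along with their cargo. The mitophagy receptors BNIP3 and BNIP3L are anchored in the outer mitochondrial membrane, need no ubiquitin, and are known targets of the hypoxia-inducible factors. A transcript level says nothing on how much receptor protein is present or how fast it is degraded.

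The receptors moved in both directions. Of the 9 listed genes, 5 were higher and 3 lower in isoginkgetin-treated cells at an adjusted p under 0.05 by the authors' test, and 1 had no row. The adjusted p-values imply that 20024 genes were tested, of which 43.6% passed, 22.4% as higher and 21.1% as lower. Among the soluble ubiquitin-binding receptors, SQSTM1, TAX1BP1, TOLLIP and CALCOCO2 rose and NBR1 fell. Among the mitochondrial receptors, BNIP3 and BNIP3L fell and PHB2 rose. The median log2 fold change of the 8 was 0.33, and that of all genes in the authors' deposited table was 0.21. Past 1.5-fold, 2 were higher (SQSTM1 and TAX1BP1) and 2 lower (BNIP3 and BNIP3L), against 12.2% and 14.0% of all genes tested. Of the 8, only SQSTM1 and BNIP3L reached 2-fold, 1 in each direction, where 6.26% of all genes tested did so as higher and 7.43% as lower.

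**Figure D1:**
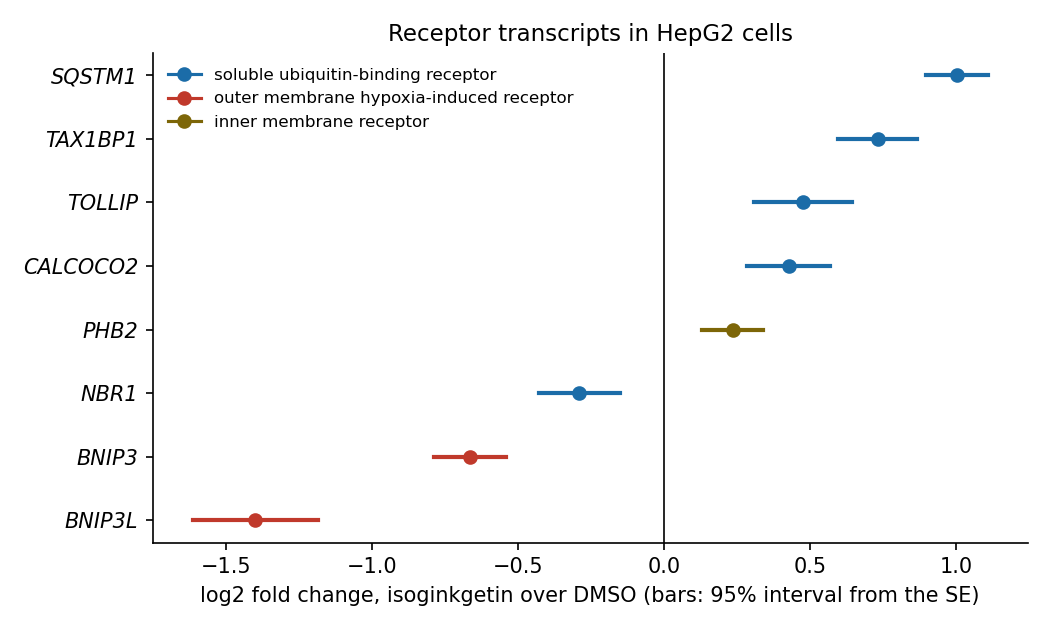
Log2 fold change of the 8 receptors with a row (points), isoginkgetin over DMSO, with the 95% interval from the SE (bars), coloured by the receptor's class. Values run from 1.004 for SQSTM1 at the top to −1.40 for BNIP3L at the bottom, and no bar crosses 0.

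SQSTM1 encodes p62, the archetypal receptor for ubiquitinated protein aggregates, which also holds KEAP1 away from the antioxidant factor NRF2. The authors' deposited table puts it at a mean normalized count of 8483 and, as log2 fold change, at 1.004 (adjusted p = 2.92e-76, SE 0.05). That is 2.01-fold, with a 95% interval from 1.86-fold to 2.16-fold. With equal groups, these values imply a mean of 11322 in isoginkgetin-treated cells and 5645 in DMSO cells. SQSTM1 was the receptor with the highest fold change of the 8 and with the lowest p-value. Among all 4493 higher genes of the authors' deposited table, 27.7% rose further. The libraries carry no strand, and in GENCODE v29 exons of MRNIP on the opposite strand cover 20.7% of the merged exon bases of SQSTM1. No row carried the name MRNIP, and older names of overlapping genes were not looked up. Smaller opposite-strand overlaps touch other receptors: PNMA2 over 7.66% of BNIP3L, AC060780.1 over 5.51% of NBR1 and JAZF1 over 4.53% of TAX1BP1. No row carried the names PNMA2, AC060780.1 or JAZF1 either.

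TAX1BP1, a ubiquitin receptor that also restrains inflammatory signalling with the A20 complex, rose next most. Its log2 fold change in the authors' deposited table is 0.73 (adjusted p = 2.11e-25, SE 0.07), or 1.66-fold. The implied means are 4996 in isoginkgetin-treated cells and 3008 in DMSO cells. The fold changes of SQSTM1 and TAX1BP1 differed by 0.27 on the log2 scale (95% interval 0.10 to 0.44). That interval takes the errors of different genes as independent, and the pair was picked by its rank.

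CALCOCO2, also called NDP52, is the receptor first known for capturing ubiquitin-coated bacteria and is a close relative of TAX1BP1. The authors' deposited table has it at 0.43 (adjusted p = 1.67e-08, SE 0.07), or 1.34-fold, with implied means of 3247 in isoginkgetin-treated cells and 2415 in DMSO cells. TAX1BP1 exceeded CALCOCO2 by 0.30 on the log2 scale (95% interval 0.11 to 0.50). TOLLIP, an adaptor of endosomes and Toll-like receptor signalling that binds ubiquitin through a CUE domain, was close to CALCOCO2. Its log2 fold change in the authors' deposited table is 0.48 (adjusted p = 7.90e-08, SE 0.09), or 1.39-fold, with implied means of 2028 in isoginkgetin-treated cells and 1457 in DMSO cells. TOLLIP and CALCOCO2 differed by 0.050 (95% interval −0.17 to 0.27), so these neighbours could not be ordered.

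NBR1 shares with p62 a PB1 domain, by which receptors assemble, and a ubiquitin-binding domain, and is known for taking aggregates and peroxisomes. It was the soluble receptor that went the other way. The authors' deposited table puts its log2 fold change at −0.29 (adjusted p = 0.000135, SE 0.07), so that NBR1 fell by 18.2%. The implied means are 3417 in isoginkgetin-treated cells and 4175 in DMSO cells. The gap between SQSTM1 and NBR1 was 1.29 on the log2 scale (95% interval 1.12 to 1.47). NBR1 and PHB2 carried the smallest changes of the 8, and neither passed a Bonferroni correction over all genes tested (adjusted p = 0.683 for NBR1 and 0.171 for PHB2).

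**Figure D2:**
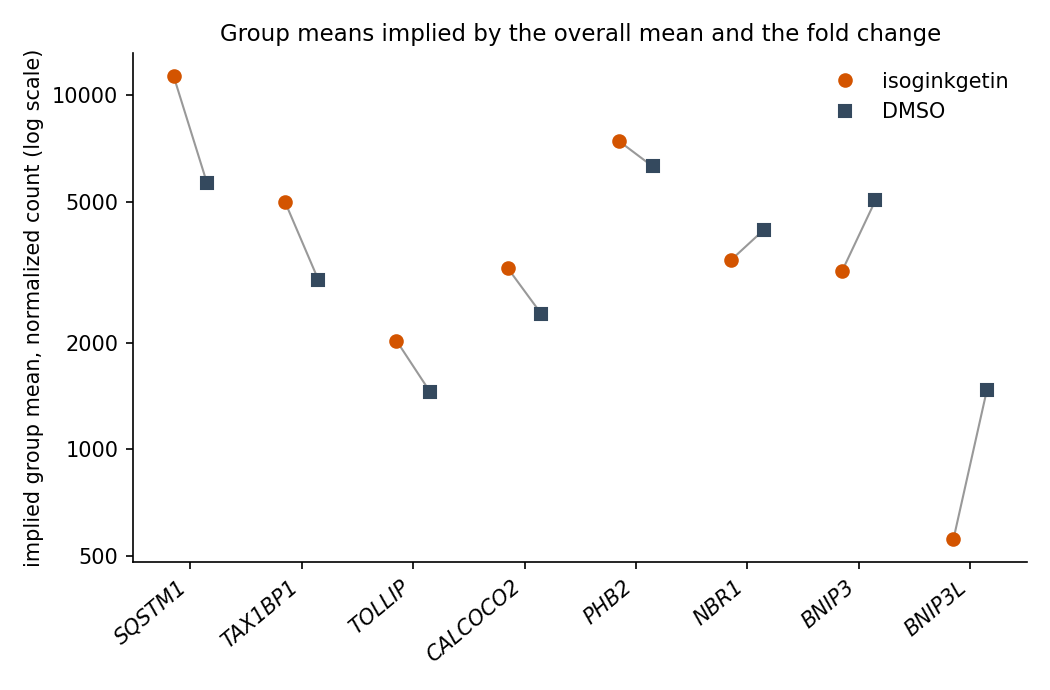
Mean normalized count implied for isoginkgetin (circles, left of each pair) and DMSO (squares, right) for each receptor, on a log axis. The pairs run from 11322 against 5645 for SQSTM1 to 557 against 1469 for BNIP3L. Levels of different genes are not comparable, since counts grow with transcript length.

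BNIP3L, also called NIX, is the receptor that clears mitochondria from maturing red cells, and its transcript fell most. The authors' deposited table lists a mean normalized count of 1013 and, as log2 fold change, −1.40 (adjusted p = 2.47e-36, SE 0.11). The implied means are 557 in isoginkgetin-treated cells and 1469 in DMSO cells, which is 2.64-fold lower. Of the 4234 lower genes in the authors' deposited table, 17.9% fell further.

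Its relative BNIP3 fell too, by less. The log2 fold change in the authors' deposited table is −0.66 (adjusted p = 1.11e-24, SE 0.06), or 1.58-fold lower, with implied means of 3186 in isoginkgetin-treated cells and 5049 in DMSO cells. BNIP3L lay 0.73 further down than BNIP3 on the log2 scale (difference −0.73, 95% interval −0.98 to −0.49). RefSeq names 46 pseudogenes after BNIP3 and 1 each after SQSTM1 and PHB2. None of them had a row under its RefSeq name, and older names were not looked up, so a copy could be missed. How the authors' counting treated reads shared with such copies is not given in the sources used here.

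PHB2, prohibitin 2, sits in the inner mitochondrial membrane and is known to be exposed to LC3 when the outer membrane ruptures. Its increase was the smallest of the 5. The log2 fold change in the authors' deposited table is 0.24 (adjusted p = 3.64e-05, SE 0.05), or 1.18-fold, with implied means of 7413 in isoginkgetin-treated cells and 6295 in DMSO cells. Centred on the median of the table, PHB2 stood at 0.023, within its error of 0. A snoRNA gene, SCARNA12, covers 9.56% of its merged exon bases on the same strand in GENCODE v29.

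In the order of fold changes, SQSTM1, TAX1BP1, TOLLIP, CALCOCO2, PHB2, NBR1, BNIP3 and BNIP3L, the interval of the difference excluded 0 for each of the 7 neighbouring pairs except TOLLIP and CALCOCO2. The narrowest gap that did so was between CALCOCO2 and PHB2, at 0.19 (95% interval 0.015 to 0.37). These intervals were not adjusted for the number of pairs, and the neighbours were picked by the same fold changes that are compared.

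**Figure D3:**
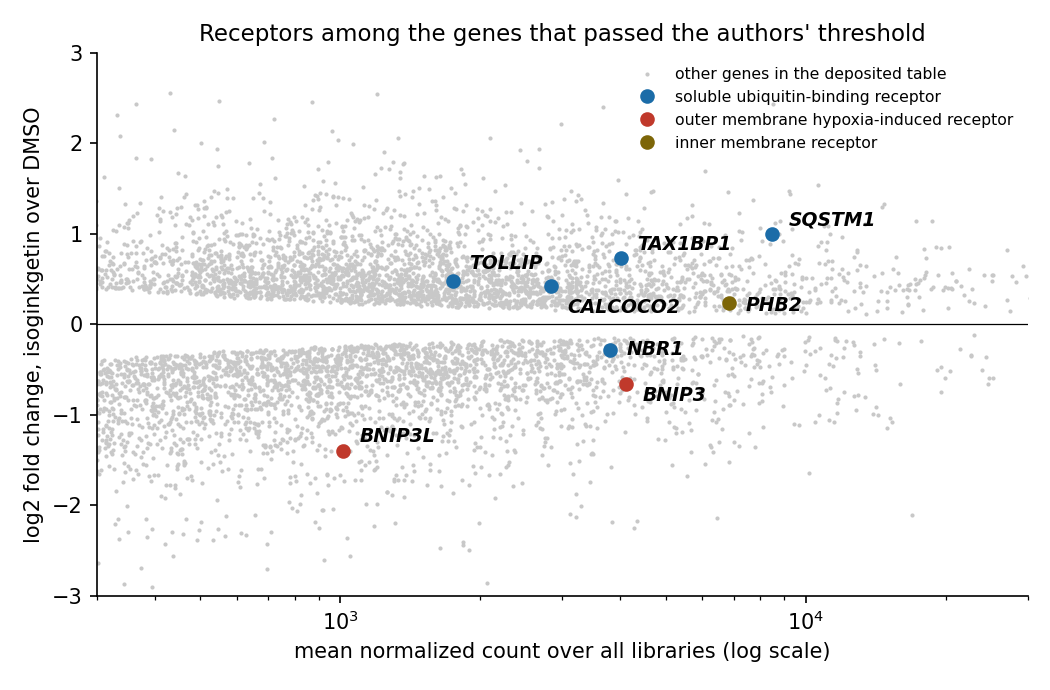
Log2 fold change (isoginkgetin over DMSO) against the mean normalized count over all libraries (log axis) for the 8 receptors (coloured) and other genes of the deposited table (grey); genes beyond the axes are left out. The receptors lie at mean normalized counts from 1013 for BNIP3L to 8483 for SQSTM1, within the cloud of other genes on both sides of 0.

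Promoter sequence is shown for the receptors with a single window that held letters known from hypoxia or antioxidant elements in more than 1 place or kind. RefSeq windows (GRCh38.p14), taken by symbol, were searched for 7 of the 9 receptors, with 13 windows in all. The 250 bases before each start were searched on both strands. Windows of BNIP3L and FKBP8 were not among those searched, which does not mean that RefSeq has none. The letters were ACGTG and GCGTG (cores of the hypoxia response element), TGACNNNGC (core of the antioxidant response element bound by NRF2), CACGTG (the E-box of the TFEB element, which contains ACGTG) and TGATGNAA (core of the ATF4 element). Capitals mark the matches.
BNIP3, chr10:131981924-131982173, minus strand: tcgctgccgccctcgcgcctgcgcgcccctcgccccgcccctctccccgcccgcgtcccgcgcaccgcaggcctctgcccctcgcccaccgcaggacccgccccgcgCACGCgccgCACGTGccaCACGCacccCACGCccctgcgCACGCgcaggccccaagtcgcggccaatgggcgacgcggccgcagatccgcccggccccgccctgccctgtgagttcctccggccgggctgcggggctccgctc
CALCOCO2, chr17:48830785-48831034, plus strand: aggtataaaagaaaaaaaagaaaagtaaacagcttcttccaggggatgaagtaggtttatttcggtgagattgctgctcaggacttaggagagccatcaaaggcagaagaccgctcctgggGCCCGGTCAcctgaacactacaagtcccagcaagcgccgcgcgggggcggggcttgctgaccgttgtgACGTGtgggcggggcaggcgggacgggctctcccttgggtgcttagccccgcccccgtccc
TOLLIP, chr11:1309633-1309882, minus strand: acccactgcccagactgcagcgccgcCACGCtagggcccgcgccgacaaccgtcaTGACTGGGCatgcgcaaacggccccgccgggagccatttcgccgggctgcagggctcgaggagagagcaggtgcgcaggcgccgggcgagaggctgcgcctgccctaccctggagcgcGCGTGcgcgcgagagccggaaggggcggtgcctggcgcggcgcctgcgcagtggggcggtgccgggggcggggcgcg

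The BNIP3 window held GCGTG 4 times, each read as CACGC on the printed strand. At least 4 copies were found in 1.12% of all 35116 windows and at least 1 in 32.2%. It also held CACGTG, present in 6.34% of windows, from 134 to 129 bases before the start, and with it ACGTG on both strands, present in 18.5%. The BNIP3 window is 81.6% G and C, against a median of 58% over all windows, and how far base composition sets the number of matches was not tested. The hypoxia cores were not particular to BNIP3. Of the 7 receptors with a searched window, 4 held GCGTG (BNIP3, TAX1BP1, NBR1 and TOLLIP) and 2 held ACGTG (BNIP3 and CALCOCO2). Some receptors have more than 1 window. Counted by window, GCGTG was in 5 of 13 and ACGTG in 2 of 13, against 32.2% and 18.5% of all windows. The antioxidant letters occurred in CALCOCO2 and in 1 of the windows of TOLLIP, and in 10.9% of all windows. No window of SQSTM1 or PHB2 held any of these letters, and TGATGNAA, present in 3.14% of all windows, was in none of the 13. These are matches of letters only, and whether a factor binds there was not measured.

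Related genes came from 8 lists of other receptors, partners and regulators. Of their 90 genes, 55 (61.1%) had a row, against 43.6% of all genes tested. They were higher in 40 cases (44.4%) and lower in 15 (16.7%), against 22.4% and 21.1% of all genes tested. These lists were drawn up with earlier results of the data known, and no test was made on them. The shares over all genes tested, here and for every list in the text, were not matched for expression level. Each value given for a related gene is its log2 fold change.

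Among 21 other selective autophagy receptors listed, 5 were higher and 5 lower (median −0.067). That is 23.8% in each direction, near the 22.4% and 21.1% of all genes tested. BCL2L13, an outer membrane mitophagy receptor, stood at −1.42 (adjusted p = 1.49e-18, SE 0.16) in the authors' deposited table, near the value of BNIP3L. NIPSNAP1, a mitochondrial signal that recruits p62 and NDP52, was at −1.17 (adjusted p = 1.34e-53, SE 0.07) and NCOA4, the ferritin receptor, at −0.51 (adjusted p = 6.62e-24, SE 0.05) in that same authors' deposited table. The authors' deposited table has CCPG1, a receptor of the endoplasmic reticulum, at 1.04 (adjusted p = 2.70e-08, SE 0.18). The authors' deposited table has NUFIP1, a receptor for ribosomes, at 0.82 (SE 0.14). OPTN and FUNDC1, receptors of ubiquitinated and of hypoxic mitochondria, had no row.

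All 4 genes with a row among the ATG8 proteins and RB1CC1 rose, of 8 listed (median 0.81). That is 50% of those listed, against 22.4% of all genes tested that were higher. MAP1LC3B, which encodes the LC3B protein that the receptors bind, was at 1.37 (adjusted p = 4.21e-73, SE 0.07) in the authors' deposited table, with implied means of 4620 in isoginkgetin-treated cells and 1791 in DMSO cells. Reads may be shared with its near-identical copy MAP1LC3B2, which had no row. GABARAPL1 was at 1.19 (SE 0.15) and GABARAPL2 at 0.43 (SE 0.12) in the authors' deposited table. RB1CC1, the FIP200 scaffold that p62 and TAX1BP1 recruit, stood in the authors' deposited table at 0.38 (SE 0.07). SQSTM1 lay below MAP1LC3B by 0.36 on the log2 scale (difference −0.36, 95% interval −0.54 to −0.18).

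Genes of ubiquitin-dependent mitophagy, including its brakes, rose in 11 of the 12 cases with a row, of 18 listed (median 0.46). That is 61.1% of those listed, against 22.4% of all genes tested. Several of the increases were small and near the table's median of 0.21, with TOMM20 at 0.20, VDAC1 at 0.23 and FIS1 at 0.29 in the authors' deposited table. These 3 genes were named after their values were seen. PINK1, the kinase at its head, had no row. TBC1D15, a Rab GTPase-activating protein of mitochondria, had the largest change at 1.40 (adjusted p = 1.78e-20, SE 0.15) in the authors' deposited table. TBK1, the kinase that phosphorylates p62 and NDP52, was at 0.97 (adjusted p = 1.14e-18, SE 0.11) in the authors' deposited table. Deubiquitinases that restrain mitophagy went different ways, with USP15 at 0.84 (SE 0.10) and USP30 at −0.73 (SE 0.23) in the authors' deposited table.

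**Figure D4:**
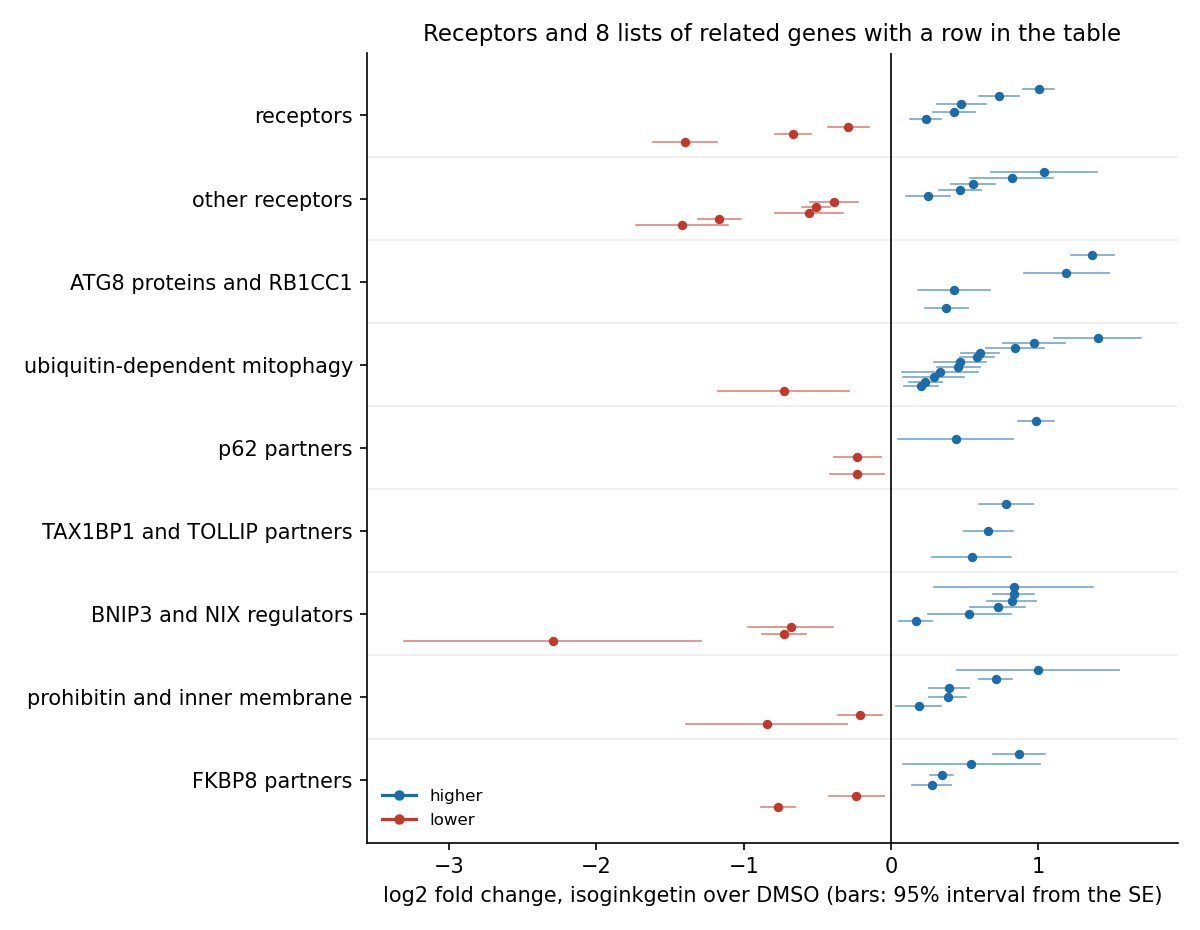
Log2 fold change (isoginkgetin over DMSO) of each gene with a row, for the receptors and the 8 related lists, with 95% intervals from the SE (bars); blue is higher, red lower. Genes of ubiquitin-dependent mitophagy lie right of 0 in 11 of 12 cases, while the receptors and the other receptors lie on both sides.

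Partners of the soluble receptors with a row were few. Of 8 listed for p62, 2 rose and 2 fell, or 25% each way, near the 22.4% and 21.1% of all genes tested. SESN2, a stress-induced protein that binds p62, was at 0.98 (adjusted p = 4.58e-55, SE 0.06) in the authors' deposited table. KEAP1, the NRF2 inhibitor that p62 captures, was at −0.23 (adjusted p = 0.0116, SE 0.08), TRAF6 at 0.44 (SE 0.20) and PRKCZ at −0.23 (SE 0.09) in the authors' deposited table. NFE2L2, which encodes NRF2, had no row. Of 7 listed for TAX1BP1 and TOLLIP, 3 had a row and all rose. That is 42.9% of those listed, against 22.4% of all genes tested that were higher. The authors' deposited table has RNF11 of the A20 complex at 0.78 (SE 0.09), the TOLLIP partner TOM1 at 0.66 (SE 0.09) and the TBK1 adaptor AZI2 at 0.55 (SE 0.14).

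Regulators of BNIP3 and BNIP3L rose in 6 and fell in 3 of the 9 cases with a row, of 12 listed (median 0.53). These are 50% and 25% of those listed, against 22.4% and 21.1% of all genes tested. HIF1A had no row. EPAS1, which encodes HIF-2α and was named after its value was seen, was at 0.17 (adjusted p = 0.00842, SE 0.06) in the authors' deposited table. VHL, which marks HIF subunits for degradation, was at 0.83 (adjusted p = 7.59e-30, SE 0.07) in the authors' deposited table. The HIF hydroxylases went both ways in the authors' deposited table, with EGLN2 at 0.83 (SE 0.27) and HIF1AN at −0.73 (SE 0.07). The authors' deposited table has FOXO3, a transcription factor known to induce BNIP3 in mouse muscle, at 0.82 (SE 0.09). Of the factors that promote turnover of BNIP3 and NIX proteins, PPTC7 was at 0.73 (adjusted p = 1.23e-13, SE 0.10) and FBXL4 at −0.68 (adjusted p = 6.32e-06, SE 0.15) in the authors' deposited table.

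The partners of PHB2 in the inner membrane rose in 5 and fell in 2 of the 7 cases with a row, of 8 listed (median 0.38). These are 62.5% and 25% of those listed, against 22.4% and 21.1% of all genes tested. PHB1, listed as PHB, forms rings with PHB2 and was at 0.39 (adjusted p = 1.01e-07, SE 0.07) in the authors' deposited table. PHB2 and PHB differed by −0.16 (95% interval −0.33 to 0.015), so the interval of their difference included 0. The authors' deposited table has the protease YME1L1 at 0.71 (SE 0.06), PARL, which cleaves PINK1, at 0.998 (SE 0.28) and OMA1, a stress-activated protease, at −0.84 (SE 0.28).

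For the cell type label, 12 hepatocyte markers were looked up. Only genes past the threshold have a row, so a marker without one may still be expressed. The rows therefore cannot settle the cell type. Of these, 11 had a row, at mean normalized counts from 442 for TTR to 157429 for APOB, and all 11 were lower (median −0.76). ALB had no row. The 11 are 91.7% of those listed, against 21.1% of all genes tested that were lower. The table also holds 1 of 6 fibroblast, 2 of 6 leukocyte and 2 of 5 endothelial markers, all lower. The highest of these was LYZ at a mean normalized count of 15328, and the other 4 lay at or under 131. Their part in the receptor results was not tested.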

How the data were processed

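The 4 libraries were grouped by their titles, with dose and time from the design text. Polyadenylated RNA, per the labels' protocols, was isolated on beads and made into non-directional libraries. Alignment with STAR 2.7.0 and counting with featureCounts are listed, per the submitters' processing notes, as are 2 builds, hg19 (human) and mm10 (mouse). The notes do not say which build served these libraries. The cells, and the gene names in the deposited table, are human. Per the file headers, the authors deposited a table with the columns of a DESeq2 results table. Its mean normalized count is a signal that, per the file headers, the authors made by dividing counts by size factors and averaging over libraries. Fold changes and SEs were deposited by the authors as log2 values. Each gene also has the p-value the authors deposited, raw and adjusted. The number of genes tested was recovered as adjusted p times rank over p, which gave 20024 in 3039 of the 3294 rows with enough digits.

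The tests planned on counts per library could not be run, so the authors' per-gene results were used. Implied group means solve the overall mean and the fold change for equal groups. Intervals are normal, at 95%, from the deposited SE. For the 8 receptors the fold change over its SE was 0.987 to 0.996 of the normal deviate of the p-value, so little shrinkage touches them. The depth per library is unknown, so no counting interval is given.

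Receptors and lists were chosen with earlier results of these data known. Related genes named are the up to 4 of each list with the largest absolute log2 fold change among genes averaging 100 normalized counts or more, and 11 fixed names, given where they had a row. Symbols of the receptors and of the listed genes were matched in current or older form. Overlapping genes were matched by their GENCODE name only, and pseudogenes by their RefSeq name only. Overlapping exons came from GENCODE v29 (GRCh38), and promoter windows from RefSeq. Python 3.11.15, pandas 2.3.3 and scipy 1.17.1 were used. Recovery of the number tested and the interval of a difference were checked on simulated data, the latter with independent normal errors. The implied means were checked on the deposited values. The other steps were not checked in this way. A related item is not reported here.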

Additional observations from a re-analysis of the deposited data

How the results depend on the processing

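No paired analysis was possible because the authors' deposited table has no value per library; for the same reason no replicate could be left out. Only centring on the table's median could turn a direction, and all 8 receptors with a row kept theirs under it. The other alternatives kept or dropped receptors, or rescaled the deposited fold change without changing its sign. All 8 average more than 1000 normalized counts, so a cut there removed none. At an adjusted p under 0.01 or 0.001, among genes averaging 1000 normalized counts or more, with current symbols only, and with the normal deviate of p times the SE as the fold change, 5 were higher and 3 lower, as deposited. Bonferroni left 4 higher and 2 lower (median 0.45). At 1.5-fold 2 were higher and 2 lower (median 0.034), and at 2-fold 1 and 1 (median −0.20); the turned sign of that median comes from its having only SQSTM1 and BNIP3L left. Centring on the table's median of 0.21 moved the receptors' median to 0.12 and left PHB2 at 0.023. That median is taken over genes past the threshold only. The median SE was 0.070 for the receptors, 0.080 for genes at 1000 or more and 0.12 for the whole table; single genes depart from this, such as SERPINA1 with an SE of 0.29 at a mean normalized count of 53061.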

Other observations

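FKBP8, the listed mitophagy receptor with no row, is an outer membrane immunophilin known to hold BCL2 proteins at mitochondria and to bind the mTORC1 activator RHEB. Of 8 listed partners and relatives, 6 had a row, 4 as higher and 2 as lower. These are 50% and 25% of those listed, against 22.4% and 21.1% of all genes tested. BCL2L1, which encodes the survival protein BCL-XL, had a log2 fold change of −0.77 (adjusted p = 4.28e-37, SE 0.06) in the authors' deposited table, with implied means of 3684 in isoginkgetin-treated cells and 6271 in DMSO cells. On the same scale BCL2 was at 0.55 (adjusted p = 0.0277, SE 0.24) in the authors' deposited table. RHEB was at 0.87 (adjusted p = 1.94e-21, SE 0.09) in the authors' deposited table, with implied means of 2069 in isoginkgetin-treated cells and 1132 in DMSO cells. The authors' deposited table has the chaperone HSP90AB1, whose pseudogenes may share its reads, at 0.34 (SE 0.04).

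EGLN3, a HIF hydroxylase that is itself a HIF target, had the lowest value of the 55 related genes with a row. Its log2 fold change was −2.30 (adjusted p = 3.10e-06, SE 0.51) in the authors' deposited table, where its mean normalized count is 47.8. It lies under the level set for naming related genes and is named after its value was seen.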
